A study of Apis mellifera with 18 samples.

Results

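In the brains of young worker honey bees (Apis mellifera), 150 genes of 9935 were set apart because their level was lower at 10 d than at 1 d of adult age in both treated and control bees. They were chosen from the 6809 genes whose identifier starts with LOC (LOC406 identifiers aside) and whose mean FPKM (read pairs per unit of transcript length and of library size) was at least 1 in both 1 d groups. Each library was divided by its median ratio to the geometric mean of the 9115 genes above 0 in all libraries, and a level is given below as this scaled FPKM. Group means were taken on log2(scaled FPKM + 0.1), and the 150 genes are those with the lowest larger value of the DT_10d minus DT_1d and C_10d minus C_1d differences. Differences between 10 d and 1 d therefore describe the choice and were not tested.

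The groups were DT_1d, C_1d, DT_5d, C_5d, DT_10d and C_10d, with 3 libraries each and 15 pooled brains per library. DT bees were fed 2 mL of 50% sucrose with 0.01 mg/L dinotefuran, a neonicotinoid insecticide that acts on nicotinic acetylcholine receptors, and C bees were fed the sucrose solution alone. All bees were newly emerged workers from sealed brood of healthy colonies, kept in cages in an incubator. Which colony or cage gave the brains of a library was not given in the sources used here, so p-values measure the spread between these pooled libraries. In such pooled tissue, fewer cells of a type and less RNA per cell cannot be told apart.

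A worker bee spends its first adult days in the dark nest while its cuticle hardens and its head glands mature, then nurses brood and later forages. The change of task goes with large changes of gene expression in the head, and the major royal jelly proteins (Mrjp), which are secreted into larval food by the hypopharyngeal glands next to the brain, are among the best known examples. None of the 150 genes had a name or synonym beyond its identifier in the gene table used, so the genes are described by identifier, position and level, and roles are given only for named genes near them.

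One library went against its label. Across 6456 genes, the library labelled C_1d replicate 1 correlated with the other C_1d libraries at r between 0.903 and 0.906 and with the C_10d libraries at r between 0.949 and 0.964. For 88 of the 150 genes its level was nearest to the C_10d mean, for 50 to the C_5d mean and for 12 to the mean of the other C_1d libraries. Mrjp1, a food protein gene outside the list, stood at 1432 scaled FPKM in this library, against 30564 and 39732 in the other C_1d libraries. Because the library lies in C_1d, values that rest on C_1d or on the spread between libraries are given with and without it. In the 5 d groups, C_5d replicate 3 stood apart to a lesser degree. It correlated with the other C_5d libraries at r between 0.935 and 0.953, while those correlated with each other at 0.9865. It also had the highest median ratio, 1.81.

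Over the 150 genes, the median level on the log2 scale was 4.17, 4.43 and 4.24 in DT_1d, against 2.12, 4.49 and 4.25 in C_1d. It was 2.78, 2.94 and 2.60 in DT_5d, against 2.54, 2.59 and 2.43 in C_5d. At 10 d it was 1.42, 1.47 and 1.55 in DT_10d, against 1.80, 1.93 and 1.44 in C_10d. The treated bees thus stood slightly above the controls at 5 d and mostly below them at 10 d, while at 1 d the groups overlapped once the library labelled C_1d replicate 1 was set aside. Over the 6809 genes the rule could take, the median in every library lay between 2.87 and 2.96.

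**Figure D1:**
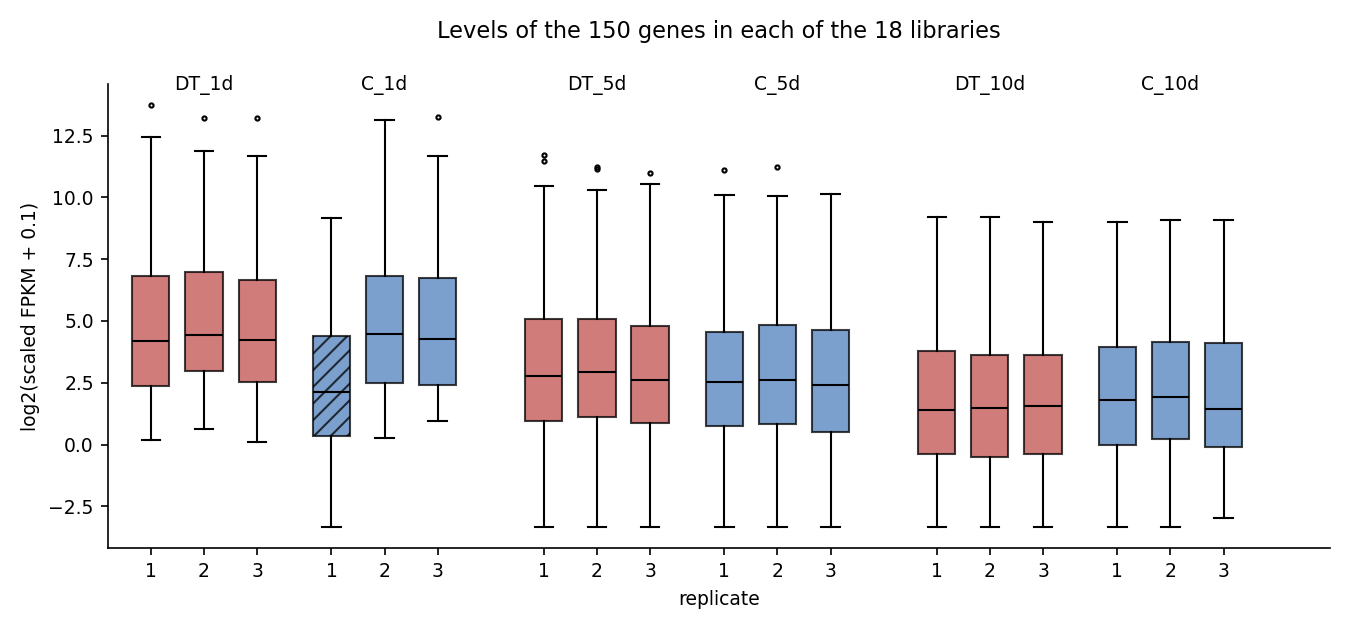
Levels of the 150 genes in each library, as log2(scaled FPKM + 0.1) on the vertical axis, with DT in red and C in blue at 1, 5 and 10 d; boxes span the quartiles, lines mark medians and whiskers reach the last value within 1.5 box lengths. The hatched box is the library labelled C_1d replicate 1, whose median of 2.12 lies among the 5 d and 10 d libraries.

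The median DT_10d minus DT_1d difference of the 150 genes was -2.74 on the log2 scale, against -0.08 over all 6809 genes. In the controls the median C_10d minus C_1d difference was -1.59, against -0.04 over all 6809 genes, and it was -2.24 without C_1d replicate 1. The difference was larger in size in DT than in C for 142 of the 150 genes, and for 106 without C_1d replicate 1. All 3 DT_10d libraries lay below all 3 DT_1d libraries for 146 genes, a pattern found in 36.9% of all 6809 genes. For C this held for 56 genes (8.55% of all 6809), and for 146 genes (30.5% of all 6809) without C_1d replicate 1. These counts follow from the choice of the genes. The last genes inside the list were LOC412279, LOC410730 and LOC409448, with a larger difference of -1.21, -1.21 and -1.20, and the first outside it were LOC552446, LOC409165 and LOC409397, with -1.20, -1.20 and -1.19. The list thus ends within a continuous range of values and not at a gap.

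**Figure D2:**
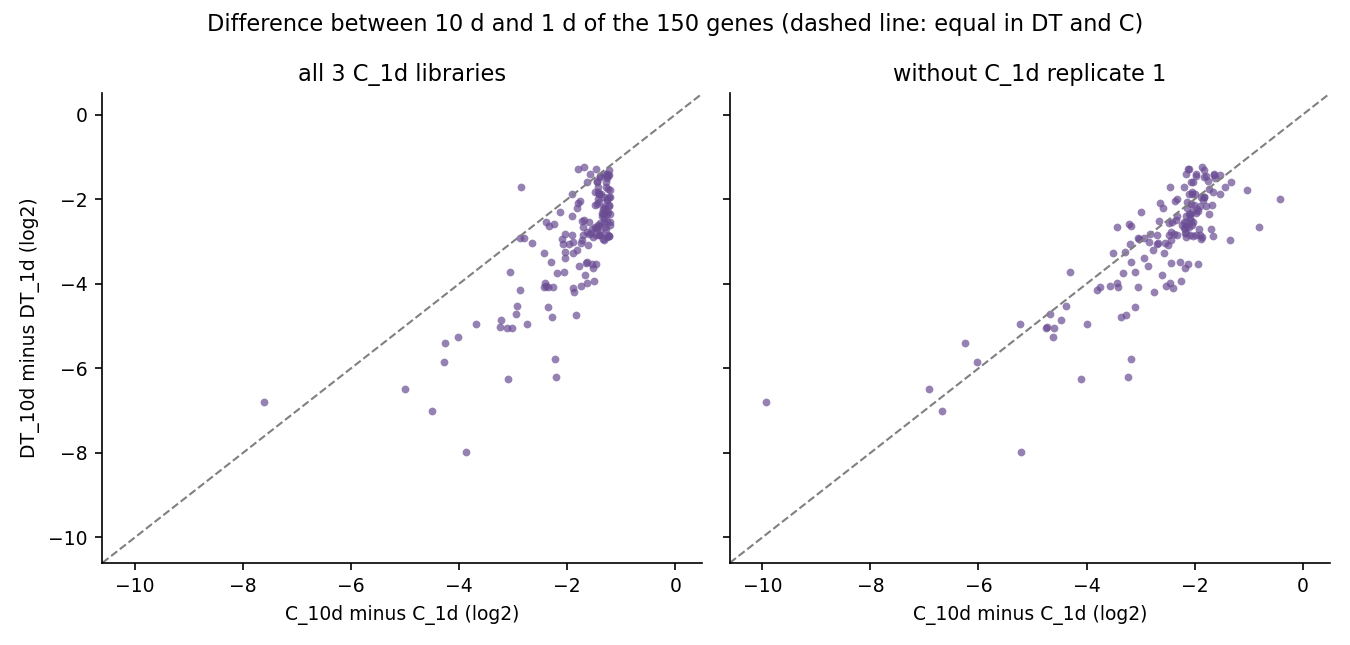
Difference between 10 d and 1 d on the log2 scale of the 150 genes, in C on the horizontal and in DT on the vertical axis, with all 3 C_1d libraries (left) and without C_1d replicate 1 (right); each point is a gene. On the left 142 points lie below the dashed line of equal differences, on the right 106.

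The gene first in the list was LOC725804 on linkage group 8 (Amel_HAv3.1, positions 10430848 to 10433690). It had 2767, 2988 and 2473 scaled FPKM in DT_1d, against 21.3, 2676 and 2643 in C_1d. It had 341, 649 and 411 in DT_5d, against 49.9, 75.1 and 29.2 in C_5d. At 10 d it had 23.7, 35.7 and 17.1 in DT_10d, against 4.51, 2.25 and 1.75 in C_10d. At 5 d and at 10 d every DT library lay above every C library, and in C_1d replicate 1 the gene stood below all C_5d libraries. The 10 d minus 1 d difference was -6.80 in DT and -7.61 in C (-9.93 without C_1d replicate 1), the deepest of the list in C.

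LOC107965367, the next, lies on linkage group 12 from 760047 to 762327, wholly inside SIFR, which codes for the receptor of the neuropeptide SIFamide. It had 19.98, 34.8 and 26.8 scaled FPKM in DT_1d, against 0.33, 28.1 and 19.2 in C_1d, and at 10 d no library was above 0.28. SIFR showed 58.2, 65.6 and 38.7 in DT_1d, against 3.94, 38.6 and 49.4 in C_1d. At 10 d SIFR showed 5.68, 7.0 and 4.86 in DT_10d, against 4.53, 4.15 and 5.12 in C_10d. Both genes were thus high in the same 5 libraries of 1 d and low at 10 d. Whether strand was used in counting was not given in the sources used here, so reads of such overlapping genes cannot be told apart. Another gene of the first 15, LOC100577331, lies inside 5-HT2beta, a serotonin receptor gene, with 4.41, 7.21 and 3.27 in DT_1d, against 0.975, 5.19 and 2.68 in C_1d, and between 0 and 0.111 at 10 d. 5-HT2beta stayed between 0.559 and 0.989 in all 18 libraries, without the pattern of the gene inside it. In all, 43 of the 150 genes (28.7%) overlapped another protein-coding gene, against 29.3% of the 6809 genes.

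LOC113218518 had the highest level of all at 1 d and alone made up 27.4% of the summed 1 d level of the 150 genes. It is a short gene on linkage group 15 (5677334 to 5677995) and had 13581, 9422 and 9469 scaled FPKM in DT_1d, against 574, 8873 and 9743 in C_1d. It had 3371, 2416 and 2020 in DT_5d, against 2200, 2392 and 1115 in C_5d. At 10 d it had 22.1, 44.1 and 78.3 in DT_10d, against 128, 423 and 286 in C_10d. The groups overlapped at 5 d, and at 10 d every DT library lay below every C library. The DT_10d minus DT_1d difference of -7.97 was the deepest of the list in DT.

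The other genes among the first 15 covered a wide range of levels. LOC725215 had 187, 125 and 140 scaled FPKM in DT_1d, against 3.05, 114 and 124 in C_1d, and between 1.48 and 2.76 at 10 d in both treatments. LOC552154 had 347, 399 and 341 in DT_1d, against 15.5, 309 and 397 in C_1d. LOC410149 had 734, 704 and 945 in DT_1d, against 90.6, 695 and 764 in C_1d. Each of these was lowest of the 1 d libraries in C_1d replicate 1. At 10 d LOC410149 had 9.36, 11.5 and 9.81 in DT_10d, against 39.1, 74.7 and 25.9 in C_10d, a gap not seen in LOC552154 with 13, 11.6 and 8.83 in DT_10d, against 12.7, 15.95 and 11.0 in C_10d. LOC410038, LOC552190, LOC100578625, LOC102653988, LOC409002 and LOC100577381 had lower levels, with a mean over the 6 libraries of 1 d between 1.96 and 77.1. Of these LOC409002 was listed at 0 in 3 libraries and LOC100577381 in 1.

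Levels at 1 d ran from a mean of 1.68 to 8611 scaled FPKM over both treatments, with a median of 18.9. The 8 highest genes held 58.1% of the summed level, and 38 genes reached 100 scaled FPKM. After LOC113218518 the highest was LOC725884, with 5628, 3787 and 3259 in DT_1d, against 362, 2754 and 3234 in C_1d. At 5 d it had 2842, 2285 and 1491 in DT_5d, against 757, 969 and 273 in C_5d, and at 10 d it had 597, 592 and 518 in DT_10d, against 520, 548 and 536 in C_10d. The treatments thus overlapped at 10 d and stood apart at 5 d. LOC413875, LOC726171, LOC409728 and LOC550711 also had all DT_5d libraries above all C_5d libraries. Their mean over the 6 libraries of 1 d was 1188, 943, 702 and 696. At 5 d LOC550711 had 713, 579 and 407 in DT_5d, against 205, 230 and 123 in C_5d, and LOC409728 had 600, 559 and 367 in DT_5d, against 199, 214 and 104 in C_5d. LOC409881, with a mean of 726 at 1 d, overlapped between treatments at 5 d, with 439, 459 and 285 in DT_5d, against 336, 384 and 227 in C_5d.

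The 5 d libraries were not used to choose the genes and show how far each gene had gone by then. The share of the 10 d minus 1 d difference that was reached at 5 d had a median of 49.8% in DT, against 67.4% in C and 76.8% in C without C_1d replicate 1. Without the scaling between libraries the order turned round, with 69.5% in DT, against 62.1% in C. On the scaled values, 28 genes in DT had reached 75% or more (early), 102 lay between 25% and 75% and 20 had reached less than 25% (late). In C without C_1d replicate 1, 79 genes were early, 65 lay between and 6 were late, and with it 59 were early, 73 lay between and 18 were late. Of the 79 genes early in C without C_1d replicate 1, 18 were early in DT as well and 53 lay between 25% and 75% in DT. For the 38 genes with at least 100 scaled FPKM at 1 d the median share was 37.9% in DT, against 84.4% in C without C_1d replicate 1. For the other 112 genes it was 54.8% in DT, against 74.5% in C without C_1d replicate 1. The 1 d and 10 d ends of these shares come from the libraries that chose the genes, so the shares were not tested.

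Levels followed the order 1 d over 5 d over 10 d in both treatments for 121 of the 150 genes, against 15.2% of all 6809 genes. The rule sets 1 d over 10 d in both treatments for all 150 genes, so this contrast follows in large part from the choice. A few genes did otherwise. LOC725114, on linkage group 15, had 572, 349 and 449 scaled FPKM in DT_1d, against 320, 265 and 248 in C_1d. It had 1394, 1256 and 1171 in DT_5d, against 1081, 995 and 739 in C_5d, and it had 36.5, 66.7 and 66.4 in DT_10d, against 27.5, 54.9 and 55.3 in C_10d. Its highest level was thus at 5 d in both treatments, and C_1d replicate 1 did not stand apart from the other C_1d libraries. LOC409709 had the same shape, with 756, 771 and 398 in DT_5d, against 1034, 1066 and 709 in C_5d, and with all 6 libraries of 1 d between 225 and 393. LOC409814, with low levels of 7.88, 7.08 and 4.18 in DT_5d, against 6.91, 5.65 and 6.28 in C_5d, was the third gene with a mean share below 0.

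At the other end, LOC551353 and LOC725350 had passed their 10 d level at 5 d. LOC551353 had 21.2, 34.0 and 33.7 scaled FPKM in DT_1d, against 6.56, 35.5 and 36.7 in C_1d, and 5.03, 5.03 and 4.98 in DT_5d, against 7.49, 6.72 and 5.91 in C_5d. At 10 d it had 6.13, 6.07 and 6.55 in DT_10d, against 7.13, 8.83 and 8.48 in C_10d. LOC107964828 had the highest share, but it was listed at 0 in all 6 libraries of 5 d and in 10 libraries in all, where an estimate of 0 may be a failed one. It was 1 of 5 genes of the list with a 0 in any library.

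**Figure D3:**
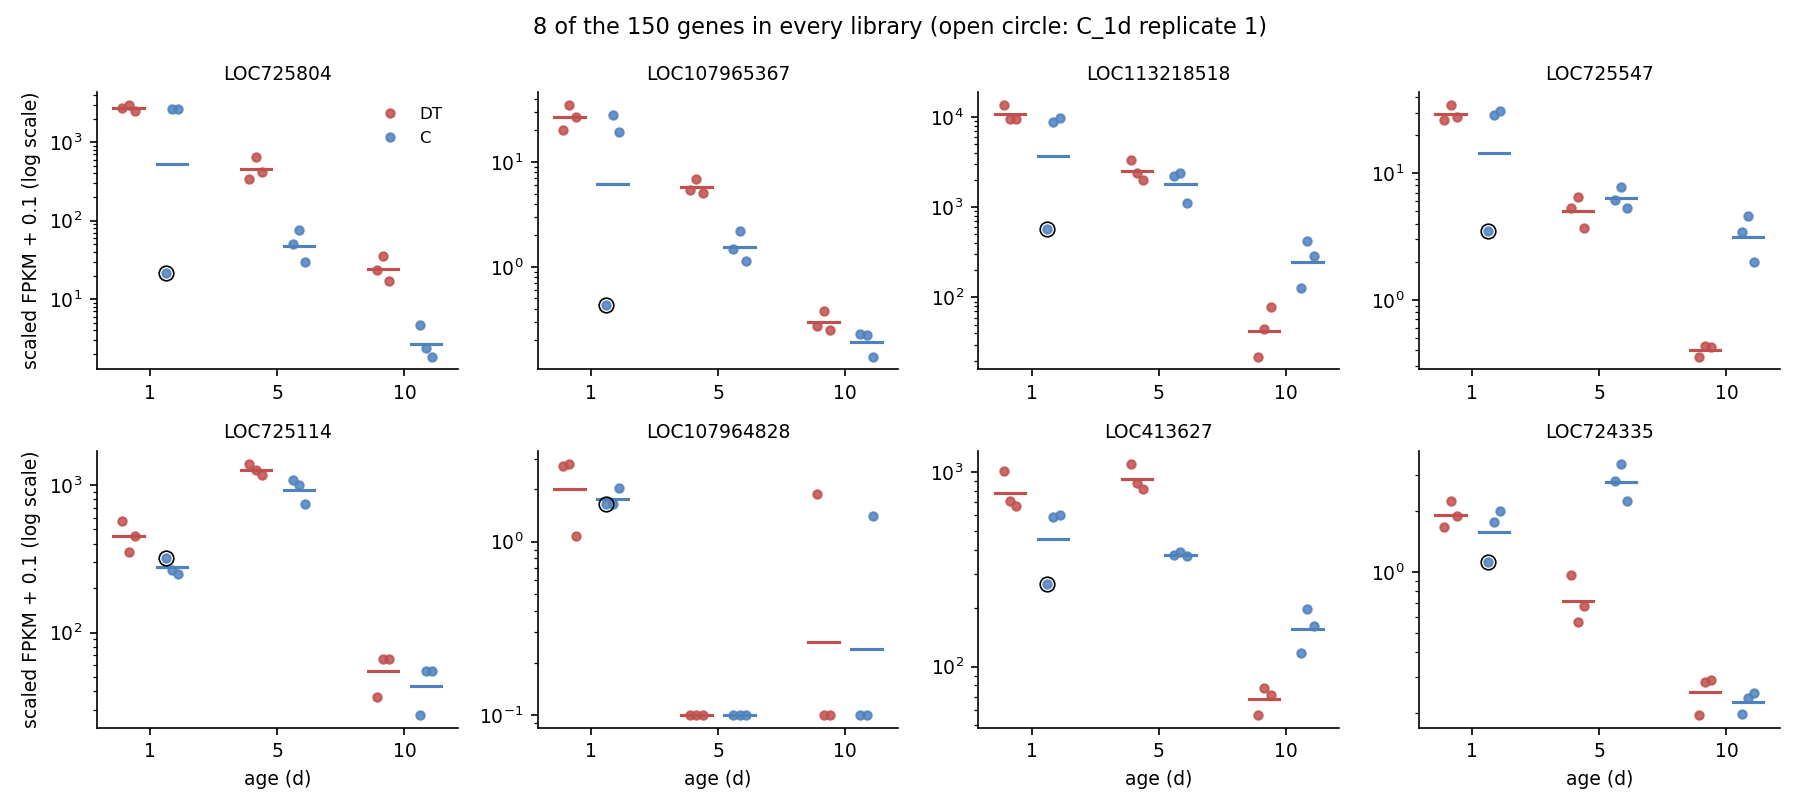
Scaled FPKM + 0.1 on a log scale of 8 genes in every library against age in days, with DT in red left of C in blue; points are libraries, bars are means on the log scale and the open circle is the library labelled C_1d replicate 1. LOC725114 is highest at 5 d, LOC725547 is lowest in DT_10d, and LOC413627 and LOC724335 are the 2 genes past the threshold at 5 d.

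Whether treated and control bees differed at 5 d was tested with limma over 9348 genes, all 150 included, with a threshold of a Benjamini-Hochberg adjusted p under 0.05 and a log2 fold change over 1 in size. Only 1 of the 150 genes was higher in DT_5d than in C_5d, against 0.407% of all genes tested, and 1 was lower, against 0.182% of all genes tested. The median DT_5d minus C_5d difference of the 150 genes was 0.41 on the log2 scale, against -0.00200 over all genes tested, and 105 of the 150 lay above 0, against 49.7% of all genes tested. With no limit on the fold change 1 gene was higher (0.813% of all genes tested) and 2 were lower (0.653%), the second being LOC724341 with a log2 difference of -0.87 ± 0.21 (SE, limma, adjusted p = 0.0494). Without the scaling between libraries 1 gene was higher (0.171% of all genes tested) and 21 were lower (15.6%). The median was then -0.32, against -0.73 over all genes tested, so the direction relative to C_5d holds only after scaling, while the 150 genes lay 0.41 above all genes in both cases.

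The gene that rose was LOC413627 on linkage group 8 (8235042 to 8238871). It had 1108, 876 and 821 scaled FPKM in DT_5d, against 374, 388 and 370 in C_5d, with a log2 difference of 1.30 ± 0.30 (SE, limma, adjusted p = 0.0435). At 1 d it had 1014, 713 and 670 in DT_1d, against 266, 590 and 603 in C_1d, and at 10 d it had 56.1, 77.8 and 71.5 in DT_10d, against 118, 199 and 161 in C_10d. The DT_5d libraries thus overlapped the DT_1d libraries, and at 10 d every DT library lay below every C library. The call was lost when any 1 of 14 of the 18 libraries was left out, with adjusted p (limma) between 0.00315 and 0.171 over the alternatives.

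The gene that fell was LOC724335 on linkage group 11 (2372102 to 2374992), at a low level throughout. It had 0.867, 0.465 and 0.581 scaled FPKM in DT_5d, against 2.72, 3.33 and 2.13 in C_5d, with a log2 difference of -1.95 ± 0.26 (SE, limma, adjusted p = 0.00367). At 1 d it had 1.57, 2.14 and 1.78 in DT_1d, against 1.02, 1.66 and 1.91 in C_1d, and at 10 d it had 0.0950, 0.183 and 0.193 in DT_10d, against 0.0973, 0.138 and 0.152 in C_10d. Its levels thus overlapped between treatments at 1 d and 10 d and stood apart at 5 d. It kept its call with each of the 18 libraries left out in turn, and adjusted p (limma) lay between 0.000538 and 0.0552 over the alternatives. It overlaps LOC724286 by 296 bp. That gene had 22.9, 19.7 and 17.4 in DT_5d, against 22.3, 21.5 and 18.7 in C_5d.

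The number of calls depended on the library labelled C_1d replicate 1, although it is not part of the 5 d comparison, because all 18 libraries share 1 estimate of the spread. Without it 38 of the 150 genes were higher in DT_5d (1.81% of 9339 genes tested) and 2 were lower (0.514% of genes tested). No difference of a gene of the list moved by more than 0.013, while the median standard error of the 150 genes was 0.25 without the library and 0.47 with it. Over all genes tested the median standard error was 0.19 without it and 0.21 with it. With the 6 libraries of 5 d alone, 4 of the 150 genes were higher (0.0883% of 9061 genes tested) and 0 were lower (0.011%), with 45 higher (2.35%) and 2 lower (0.784%) at an unadjusted p under 0.05 (limma).

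Most of the highly expressed genes leaned the same way at 5 d. Of the 38 genes with at least 100 scaled FPKM at 1 d, 35 had a DT_5d minus C_5d difference above 0, with a median of 1.29. For 28 of them all 3 DT_5d libraries lay above all 3 C_5d libraries, against 12.8% of all genes tested, and for 0 of them all lay below. Of the other 112 genes, 70 had a difference above 0, with a median of 0.21. For 30 of these all DT_5d libraries lay above all C_5d libraries, and for 15 all lay below, against 12.4% of all genes tested. Among all 361 genes tested at that level the median was 0.44 and 305 lay above 0. Without C_1d replicate 1, 23 of the 38 genes were higher in DT_5d past the threshold, against 79 of the 361, which include the 38. Of the 112 genes at lower levels 15 were higher past the threshold, against 1.81% of all 9339 genes tested.

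The largest of these differences was that of LOC725804, whose log2 difference was 3.23 ± 1.23 (SE, limma) with an adjusted p of 0.147 with all libraries and 0.000454 without C_1d replicate 1. LOC410038 had 5.65, 7.49 and 4.57 scaled FPKM in DT_5d, against 0.612, 1.09 and 0.483 in C_5d, with a log2 difference of 2.90 ± 1.05 (SE, limma) and an adjusted p of 0.131 with all libraries and 0.000192 without C_1d replicate 1. LOC725215 had 29.2, 28.3 and 21.0 in DT_5d, against 5.82, 6.23 and 4.36 in C_5d, with an adjusted p (limma) of 0.169 with all libraries and 3.93e-05 without C_1d replicate 1. In all 3 genes the DT_5d libraries lay above the C_5d libraries without overlap. The gene of the list with the highest level, LOC113218518, did not pass the threshold in either fit, with a log2 difference of 0.50 ± 0.84 (SE, limma, adjusted p = 0.771).

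**Figure D4:**
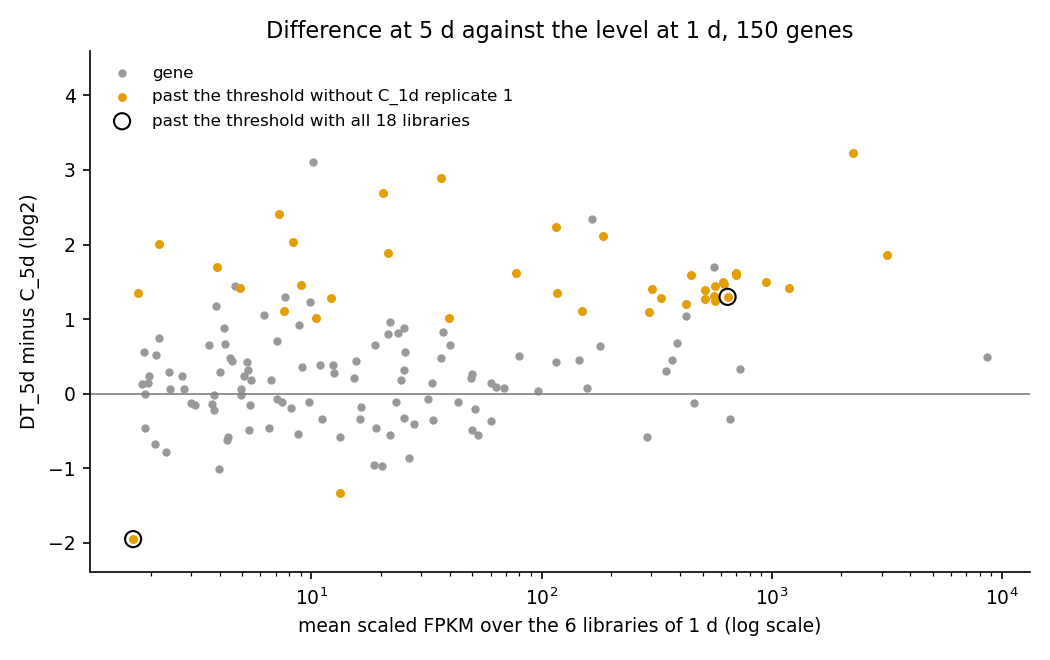
DT_5d minus C_5d difference on the log2 scale of the 150 genes against their mean scaled FPKM over the 6 libraries of 1 d (log scale); orange points passed the threshold without C_1d replicate 1 and open circles with all 18 libraries. Of the 38 genes at 100 or more, 35 lie above 0.

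The summed level of 9 genes listed as markers of the hypopharyngeal gland moved with these groups. LOC406093 was the largest part of this sum in every library, and Hbg3 and Apid1 went other ways in part, as given below. The 9 marker genes (Mrjp1 to Mrjp5, Mrjp7, Hbg3, Apid1 and LOC406093), none of them among the 150 and none at 0 in any library, summed to between 127126 and 190973 scaled FPKM in DT_5d, against 34392 and 83798 in C_5d. At 1 d they summed to between 164802 and 276819 in DT_1d, against 19481 and 166160 in C_1d, the lowest being C_1d replicate 1. At 10 d they summed to between 8087 and 10895 in DT_10d, against 14595 and 37650 in C_10d. These last sums were mostly LOC406093, with between 6894 and 9351 in DT_10d, against 10777 and 28406 in C_10d, and Hbg3, an alpha-glucosidase gene of the gland, with between 351 and 762 in DT_10d, against 3329 and 8917 in C_10d. Most royal jelly protein genes did not follow the sum at 10 d. Mrjp1 had between 115 and 703 in DT_10d, against 5.07 and 54.9 in C_10d, and Mrjp2, Mrjp3 and Mrjp7 were also higher in every DT_10d library than in every C_10d library, while Mrjp4 and Mrjp5 overlapped. Mrjp1 had 44787, 30685 and 25410 in DT_5d, against 4085, 3194 and 3406 in C_5d. The direction of this and every other DT_5d minus C_5d difference rests on the library labels as deposited. For Mrjp1 at this age the paper reports the opposite direction, both by quantitative PCR and in its list of abundant transcripts. Its quantitative PCR also has Hbg3 higher in treated bees. That list, in contrast, has Hbg3 lower and LOC406093 higher in treated bees at the middle age, the same directions as under the deposited labels. Whether the labels are right was not tested. At 5 d Hbg3 went the other way from Mrjp1, with 4325, 3244 and 3406 in DT_5d, against 7518, 8126 and 8522 in C_5d, and so did Apid1, an antimicrobial peptide gene, between 1 d and 10 d. The 3 photoreceptor markers found by name were the opsin genes Lop1, Lop2 and Blop. They summed to between 265 and 380 in DT_5d, against 428 and 514 in C_5d. At 1 d they summed to between 258 and 292 in DT_1d, against 245 and 654 in C_1d, the highest being C_1d replicate 1, and at 10 d to between 477 and 571 in DT_10d, against 583 and 802 in C_10d. These sums, mostly Lop1, were thus lower in DT than in C at 5 d and 10 d without overlap. Lop2 went the other way, with 11.8, 12.4 and 11.3 in DT_5d, against 9.54, 9.02 and 9.16 in C_5d. At 10 d Lop2 had 14.9, 15.4 and 13.3 in DT_10d, against 11.8, 9.91 and 10.1 in C_10d. Blop overlapped between treatments at both ages. Fat body markers (4 genes) summed to between 27.5 and 32.1 in DT_5d, against 14.1 and 21.0 in C_5d. This gap was mostly Hex70a, while Vg overlapped between treatments. At 1 d the 4 genes summed to between 36.6 and 71.9 in DT_1d, against 10.3 and 54.2 in C_1d. At 10 d the sums overlapped as well, with between 3.76 and 5.85 in DT_10d, against 3.59 and 13.7 in C_10d. The 10 neuronal markers found by name were receptors for acetylcholine, dopamine and glutamate. They summed to between 16.4 and 19.3 in DT_5d, against 21.0 and 34.7 in C_5d, the highest being C_5d replicate 3. Nmdar1, nAChRa2 and nAChRb1 were lower in every DT_5d library than in every C_5d library. The other neuronal markers overlapped between treatments at 5 d. The neuronal sums overlapped between treatments at the other ages. They were between 15.5 and 18.3 in DT_1d, against 16.8 and 25.6 in C_1d, and between 24.7 and 27.2 in DT_10d, against 23.5 and 25.5 in C_10d. The part of these markers in the results for the 150 genes was not tested.

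Between treatments at 1 d and 10 d the values are a description, since those libraries chose the genes. The median DT_1d minus C_1d difference was 0.81 on the log2 scale and 0.06 without C_1d replicate 1, against 0.02 over all 6809 genes. At 10 d the median DT_10d minus C_10d difference was -0.20, against -0.02 over all 6809 genes, and 105 of the 150 genes lay below 0. The lowest was that of LOC725547 with -2.97. It had 0.256, 0.329 and 0.322 scaled FPKM in DT_10d, against 3.32, 4.5 and 1.89 in C_10d, while at 5 d it had 5.21, 6.42 and 3.57 in DT_5d, against 6.0, 7.70 and 5.23 in C_5d. LOC113218518 came next with -2.55, then LOC552685 with -2.39, which had 8.62, 9.87 and 9.60 in DT_10d, against 52.0, 81.8 and 28.6 in C_10d. The highest differences were 3.17 in LOC725804, 2.55 in LOC552719 and 1.32 in LOC726468. In LOC552719 libraries varied widely within groups, with 10.6, 1.84 and 3.05 in DT_10d, against 0.0558, 0.729 and 2.41 in C_10d. LOC726468 rested on 1 library, with 17.7, 11.8 and 8.35 in DT_10d, against 18.7, 13.9 and 0.337 in C_10d.

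Some of the genes lay close together on the chromosomes. Of the 150, 24 (16%) had another gene of the list within 20 kb, against 8.14% of the 6809 genes with one within that distance, and 13 (8.67%) were direct neighbours of one, against 2.94% of the 6809. The 24 formed 11 groups, 1 of them of 4 genes and the others of 2. Linkage groups 8 and 1 held 18 genes each, of 512 and 890 that could be taken. The median gene length was 3120 bp, against 4099 bp over the 6809 genes, and 62.0% had a single RefSeq mRNA, against 48.4% of the 6809. No test was made of these shares.

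The group of 4 was LOC725804, LOC725838, LOC552685 and LOC100576916, which lie within 38955 bp of linkage group 8 (10430848 to 10469802). LOC725838 had 191, 260 and 206 scaled FPKM in DT_1d, against 2.33, 232 and 213 in C_1d. At 5 d it had 13.4, 24.7 and 18.2 in DT_5d, against 4.36, 6.87 and 2.32 in C_5d, and at 10 d it had 1.95, 1.55 and 1.29 in DT_10d, against 2.50, 2.1 and 1.73 in C_10d. LOC100576916 was much lower, with 5.16, 5.44 and 4.85 in DT_1d, against 0.190, 3.89 and 3.72 in C_1d. All 4 were highest at 1 d with C_1d replicate 1 set aside, but they differed at 10 d, where LOC725804 was higher in DT, LOC552685 was lower in DT and LOC725838 overlapped between treatments. LOC113218932, between LOC552685 and LOC100576916, stayed between 0.0157 and 1.57 in all libraries and was below the level needed for the list. LOC102655690, next to LOC725804, also fell short of that level, with 0.573, 0.884 and 0.767 in DT_1d, against 0.0545, 0.810 and 0.771 in C_1d, and at most 0.0496 at 5 d and 10 d. LOC551296, the neighbour on the other side, was between 3.17 and 5.55 in all libraries and was ranked 4271 of 6809 by the rule.

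**Figure D5:**
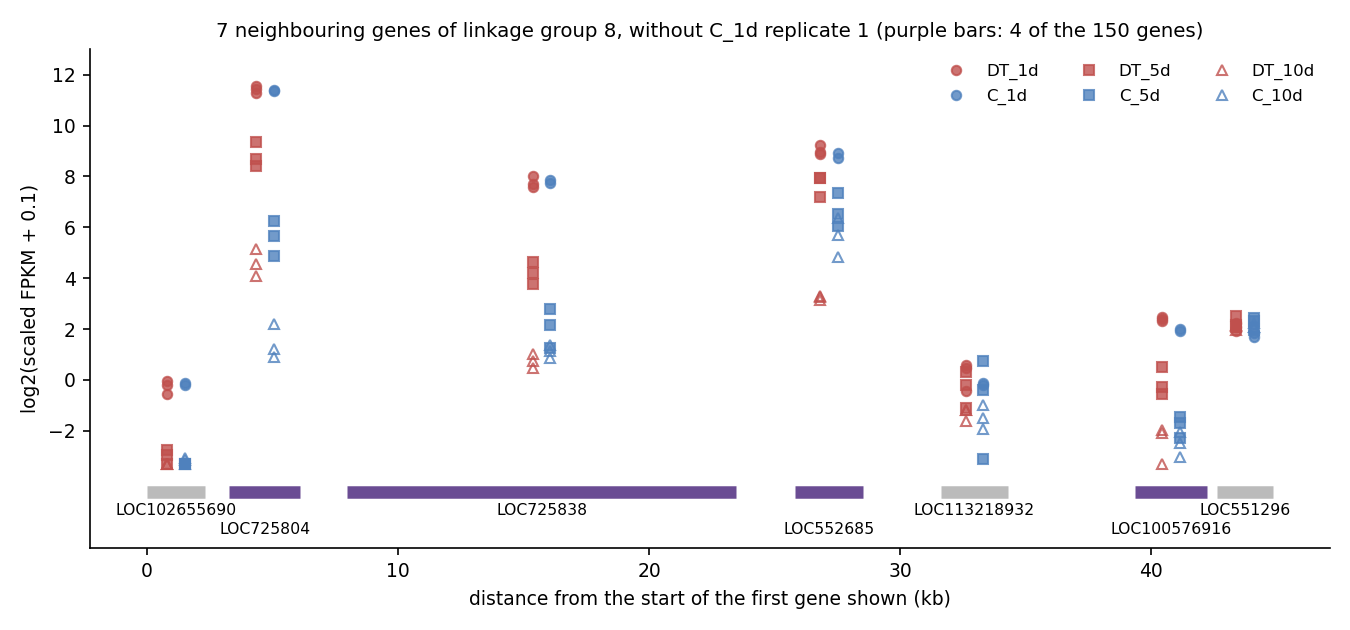
Levels as log2(scaled FPKM + 0.1) of 7 neighbouring genes of linkage group 8 against the distance in kb from the start of the first gene, with DT in red left of C in blue, circles at 1 d, squares at 5 d and open triangles at 10 d, and C_1d replicate 1 left out; bars below mark the genes, the 4 of the list in purple. The 4 purple genes are highest at 1 d, and LOC551296 at the right end lies between 3.17 and 5.55 scaled FPKM throughout.

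The pairs were LOC413868 and LOC727074 on linkage group 1, LOC551353 and LOC550715 on 10, LOC408365 and LOC551323 on 11, LOC727392 and LOC724624 on 13, LOC102656190 and LOC724558 as well as LOC726189 and LOC100577576 on 3, LOC725547 and LOC413113 as well as LOC410038 and LOC552249 on 4, LOC113218830 and LOC411978 on 6, and LOC100578625 and LOC409002 on 9. The closest were LOC102656190 and LOC724558, 112 bp apart. Neighbours did not always share a pattern: LOC551353 was near its 10 d level in both treatments at 5 d, while LOC550715, 1582 bp away, was higher in DT_5d past the threshold without C_1d replicate 1 (log2 difference 1.27, limma adjusted p = 0.00819).

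Genes of the cuticle lay beside 5 of the 150. LOC725547 was next to CPR27 and LOC102653832 next to CPR16, which code for cuticular proteins with a chitin-binding domain. LOC726189 and LOC100577576 flanked Cpap3-d, a cuticular protein gene related to peritrophins, and LOC727145 was next to Apd-3, an apidermin gene. In all, 3.33% of the 150 genes were next to 1 of 26 genes named CPR, CPF, Cpap or Apd, against 0.279% of the 6809 genes, a set of names chosen after these neighbours were seen. CPR27 had 42.2, 47.7 and 36.1 scaled FPKM in DT_1d, against 5.08, 38.0 and 37.6 in C_1d, and 1.66, 1.61 and 1.61 in DT_10d, against 4.07, 6.44 and 2.17 in C_10d. CPR27 was thus lower in DT than in C at 10 d without overlap, as LOC725547 was, and both genes had a C_1d replicate 1 value within their C_10d range. Cpap3-d had 116, 147 and 113 in DT_1d, against 42.4, 104 and 127 in C_1d, and 41.2, 31.8 and 32.4 in DT_10d, against 45.4, 48.9 and 29.9 in C_10d. CPR16 was below 0.50 in all libraries.

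Genes with a name of their own or a LOC406 identifier could not enter the list. Of 279 such genes with enough FPKM at 1 d, 33 had both differences past the limit of the list. Among them were Mrjp1 to Mrjp7, the cuticle genes CPF2, CPR5, CPR19, CPR27, Cpap3-b and Apd-1, the odorant-binding protein genes Obp13 and Obp14, and the troponin C genes TpnCIIa and TpnCIIb of muscle. The hexamerin gene Hex70a, which codes for a storage protein, and JHBP-1, a gene for a juvenile hormone binding protein, were there as well. The others were LOC406093, LOC406114, SIFR, ND2, ND5, COX2, Rpl41, Ppib, Gfat2, ACSF2, GstS4, CSP2, Y-y and Wat. Mrjp2 had the lowest larger difference, with 11281 ± 2726 scaled FPKM in DT_1d, against 5565 ± 4703 in C_1d, and 10.5 ± 5.36 in DT_10d, against 1.26 ± 0.90 in C_10d (SD, n = 3 each, C_1d with replicate 1). CPF2 had 3333 ± 548 in DT_1d, against 2292 ± 1959 in C_1d, and 33.1 ± 1.51 in DT_10d, against 27.2 ± 6.31 in C_10d (SD, n = 3 each).

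Long noncoding RNAs assembled by the authors were listed under 16 of the 150 genes, with 25 transcripts. The lncRNA values of DT_1d replicate 1 equal those of DT_10d replicate 1 for all 6760 lncRNA transcripts, so DT_1d replicate 1 was left out here. Of the 25 transcripts 9 reached a scaled FPKM of 1 in a library, and 6 of these were lower at 10 d than at 1 d in both treatments. The others were TCONS_00009610, listed under LOC102656224, and TCONS_00024668 and TCONS_00024667, listed under LOC552249. The same shares over all 6760 lncRNA transcripts were not taken, so these counts show nothing particular to the 150 genes. TCONS_00061230, listed under LOC552154, had 18.8 and 16.2 in DT_1d, against 0.616, 14.1 and 18.3 in C_1d. It had 5.99, 6.61 and 3.79 in DT_5d, against 1.25, 1.60 and 0.623 in C_5d, and 1.05, 1.19 and 0.804 in DT_10d, against 1.17, 0.888 and 1.12 in C_10d. TCONS_00050001, listed under LOC725838, had 17.1 and 12.9 in DT_1d, against 2.02, 12.7 and 14.8 in C_1d, and 9.19, 7.21 and 7.43 in DT_5d, against 3.71, 5.87 and 2.04 in C_5d. TCONS_00061230 followed the order of the group means of LOC552154 on the log2 scale. TCONS_00050001 departed from that of LOC725838, with a DT_5d mean of 3.00 above its C_1d mean of 2.89, C_1d replicate 1 included. Both transcripts were lowest in C_1d replicate 1 among the 1 d libraries, as were the genes they are listed under.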

How the data were processed

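The deposited FPKM of 18 libraries came from Cuffdiff, after the authors had mapped reads with Hisat2 (genome Amel_HAv3.1) and built transcripts with StringTie. The Cuffdiff option for scaling between libraries is not given in the sources used here. Each mRNA of a gene carries the FPKM of the gene, so 1 value per gene was used. The study gives read totals per library, which were not used here. The files hold no read number behind a value, so errors are spreads between libraries. FPKM summed to between 340061 and 472756 per library, and the median ratios used for scaling lay between 0.54 and 1.81.

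DT_5d and C_5d were compared with limma 3.58.1 in R 4.3.3 (lmFit, eBayes with trend) on log2(scaled FPKM + 0.1), over genes that reached FPKM 0.1 in 3 or more libraries, with Benjamini-Hochberg adjustment over all of them. On simulated libraries the procedure recovered 95.5% of 200 genes changed by 2 on the log2 scale, with 3 false calls. The simulated spread was estimated without C_1d replicate 1, so this does not show how the fit performs with that library. Python 3.11.15 with pandas 2.3.3 and numpy 2.4.6 was used for the rest, and matplotlib 3.10.9 for figures. The members and lists were chosen with earlier results of these data known.

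Named genes are the 15 with the lowest larger difference, the 3 on each side of the limit, those past the 5 d threshold, the 8 highest at 1 d, the 3 with the lowest and highest share reached at 5 d, neighbours within 20 kb and the 3 largest and smallest DT_10d minus C_10d differences. LOC724341, LOC550715 (a neighbour) and genes beside the members were singled out after their values were seen. Lists and glia, muscle, cuticle, hemocyte and further neuron markers keyed on gene descriptions could not be matched and were not used. Positions come from the RefSeq gene table of Amel_HAv3.1. Alternatives were other pseudocounts, no filter, no scaling, quantile normalization, the replicate number as a block, the 5 d libraries alone, no trend, no fold threshold, a higher floor for the list and each library left out. Leaving C_1d replicate 1 out of the C_1d mean with the list kept, the split by level at 1 d and the cuticle names were chosen after seeing the data.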

Additional observations from a re-analysis of the deposited data

How the results depend on the processing

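The counts at 5 d depended on the libraries and the scaling. Without scaling between libraries 21 of the 150 genes were lower in DT_5d than in C_5d, 1 was higher and the median difference was -0.32 on the log2 scale, against 0.41 with scaling. Quantile normalization left 0 higher, against 28 of all 9348 genes tested. The 5 d libraries alone gave 4 higher and 0 lower, and no fold threshold gave 2 lower. Leaving out 1 library at a time gave between 0 and 38 higher, between 1 and 2 lower and a median difference between 0.28 and 0.49. The 38 came without C_1d replicate 1 and the 0.28 without C_5d replicate 3. LOC413627 lost its call in 14 of these 18 fits and under quantile normalization, no scaling and the 5 d libraries alone. LOC724335 lost its call only with the 5 d libraries alone (adjusted p = 0.0552, limma). The median share reached at 5 d was 69.5% in DT, against 62.1% in C, without scaling, which turned the order round from 49.8% in DT, against 67.4% in C, with scaling. The share in DT lay between 46.0% and 52.3% over the libraries left out, and the share in C between 57.6% and 76.7%. The rule took 98 of the 150 genes again with a floor of 5 FPKM at 1 d, and between 119 and 150 with 1 library left out. Without scaling the 10 d minus 1 d difference was below 0 for all 150 genes in both treatments, with a median of -1.52 in DT and -1.34 in C, against 1.16 in DT and 0.22 in C over all 6809 genes.

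Same-numbered DT and C libraries deviated together with r between -0.14 and 0.25 over the 3 ages, so the numbers were not taken to pair the libraries. With the replicate number as a block, 1 gene was higher and 1 lower, and the median difference was 0.41. No outlier test was made, since every group holds 3 libraries. The cause of these changes was not tested. The files hold no read numbers, so no upper limit is given for a level listed at 0.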
